A study of Mus musculus with 12 samples.

Results

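Collagen genes were followed in epithelial cells sorted from the submandibular gland, a major salivary gland, of mouse embryos at embryonic day 15. Every symbol in the count matrix written as Col, a number, the letter a and a number was taken, except Col17a1. This gave 43 genes of 43280 symbols, of which 11 were fibrillar collagens, 6 were type IV collagens and 26 were other collagens. All 43 passed the filter on low counts, as did 17030 genes in all. The 12 libraries came from 4 groups of 3 libraries each, named for both gates as Kit+K5+, as Kit+K5-, as Kit-K5+ and as Kit-K5-. All mice carried the transgene named in the strain label Tg(KRT5-Venus)1Sgkd, in which the promoter of keratin 5 drives the fluorescent protein Venus. All cells were sorted as positive for E-cadherin, an epithelial adhesion protein, and then by antibody staining for Kit, a receptor tyrosine kinase, and by Venus fluorescence. The groups are therefore sort gates, and the Venus gate reads the transgene and not the keratin 5 protein. How many embryos went into a library was not stated in the labels, and no label says that the libraries of a group came from separate embryos or litters, so p-values measure only the spread between these samples.

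Collagens are the main structural proteins of the extracellular matrix, and each molecule is a triple helix of 3 chains encoded by the same gene or by different genes. Fibrillar collagens form the fibrils of connective tissue and are made mostly by mesenchymal cells, while type IV collagens form the network of the basement membrane beneath epithelia. The remaining types sit on fibrils, form beaded filaments, anchor the basement membrane to the tissue beneath, or span the cell membrane. In the developing salivary gland the basement membrane surrounds branching epithelial buds and ducts and separates them from the mesenchyme.

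Library totals lay between 5589037 and 13724364 counts. Genes of epithelium and of other cell types differed in level between the sort gates. Of 22 general epithelial genes, whose summed level averaged 2962 CPM (edgeR's library-scaled counts over the tested genes, after TMM scaling) across Kit+K5+, 2721 CPM across Kit+K5- and 2221 CPM across Kit-K5+ cells, the level in Kit-K5- cells was 666 CPM. The summed level of 15 mesenchymal genes was 259 to 532 CPM across Kit+K5+, 325 to 426 CPM across Kit+K5-, 448 to 654 CPM across Kit-K5+ and 4992 to 7266 CPM across Kit-K5- libraries. All 3 defining mesenchymal genes were read in every Kit-K5- library, and Pdgfra, a growth factor receptor of mesenchymal cells, averaged 11.8 CPM across Kit+K5+, 12.3 CPM across Kit+K5-, 11.3 CPM across Kit-K5+ and 593 CPM across Kit-K5- cells. Twist1, a mesenchymal transcription factor, was at 0 in 1 Kit+K5+ and 1 Kit+K5- library. The summed level of 6 mast cell genes was 3.75 to 45.5 CPM across Kit+K5+, 116 to 4734 CPM across Kit+K5-, 2.75 to 11.6 CPM across Kit-K5+ and 15.9 to 35.7 CPM across Kit-K5- libraries. That of 8 macrophage and leukocyte genes averaged 5.49 CPM across Kit+K5+, 64.7 CPM across Kit+K5-, 14.6 CPM across Kit-K5+ and 306 CPM across Kit-K5- cells, and that of 7 neuron genes averaged 3.19 CPM across Kit+K5+, 7.63 CPM across Kit+K5-, 8.18 CPM across Kit-K5+ and 90.6 CPM across Kit-K5- cells. Genes of Schwann cells and glia, 8 in number, averaged 98.6 CPM across Kit+K5+, 131 CPM across Kit+K5-, 55.2 CPM across Kit-K5+ and 258 CPM across Kit-K5- cells. The Kit+K5- gate thus held mast cell genes far above the other gates, and the Kit-K5- gate held mesenchymal and neuron genes above them. Macrophage and leukocyte genes were highest on average in Kit-K5- cells. Their Kit-K5- libraries, at 84.9 to 675 CPM, overlapped those of Kit+K5-, at 18.6 to 154 CPM. Cpa3 and Ms4a2, defining genes of mast cells, were at 0 in 1 Kit+K5+ library each. Mitochondrial transcripts took 23.7% of counts across Kit+K5+, 17.2% across Kit+K5-, 28.0% across Kit-K5+ and 9.07% across Kit-K5- cells. In these bulk libraries, fewer cells of a type and less RNA per cell cannot be told apart.

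The start regions of 4 collagen genes are shown because their genes carry the main patterns below: Col1a2 and Col3a1 fell together outside Kit-K5- cells, Col4a2 shares its start region with Col4a1, and Col11a1 followed the Kit gate. Each window holds 250 bases before and 50 bases after the start of the RefSeq transcript on GRCm38.p6, on the plus strand. Capitals mark matches on either strand to the CCAAT box (CCAAT), the GC box (GGGCGG) and the TATA box (TATAAA), and no match of one overlapped a match of another.
Col1a2: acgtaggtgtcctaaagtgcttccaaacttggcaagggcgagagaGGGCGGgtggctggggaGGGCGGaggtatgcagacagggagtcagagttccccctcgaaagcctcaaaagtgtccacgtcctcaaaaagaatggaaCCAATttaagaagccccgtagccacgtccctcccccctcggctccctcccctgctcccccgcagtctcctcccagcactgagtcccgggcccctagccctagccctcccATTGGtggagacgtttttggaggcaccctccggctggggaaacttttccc
Col3a1: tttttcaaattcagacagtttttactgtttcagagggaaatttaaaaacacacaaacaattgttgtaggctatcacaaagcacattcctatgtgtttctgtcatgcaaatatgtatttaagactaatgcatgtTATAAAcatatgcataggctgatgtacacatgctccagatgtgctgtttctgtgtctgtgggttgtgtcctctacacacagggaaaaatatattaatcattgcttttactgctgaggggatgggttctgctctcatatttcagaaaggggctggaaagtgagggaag
Col4a2: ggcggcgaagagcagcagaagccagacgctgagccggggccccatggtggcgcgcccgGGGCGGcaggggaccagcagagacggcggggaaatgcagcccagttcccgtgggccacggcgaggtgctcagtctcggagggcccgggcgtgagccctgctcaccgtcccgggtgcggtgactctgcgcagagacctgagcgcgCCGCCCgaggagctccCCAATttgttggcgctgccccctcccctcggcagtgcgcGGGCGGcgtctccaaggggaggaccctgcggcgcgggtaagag
Col11a1: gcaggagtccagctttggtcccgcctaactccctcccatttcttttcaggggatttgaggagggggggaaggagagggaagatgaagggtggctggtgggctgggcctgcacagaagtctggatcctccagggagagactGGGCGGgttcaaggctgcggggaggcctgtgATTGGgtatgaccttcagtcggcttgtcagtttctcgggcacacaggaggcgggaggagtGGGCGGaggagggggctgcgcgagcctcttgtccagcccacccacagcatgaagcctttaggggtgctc
The Col1a2 window (chr6:4505368-4505667) held 2 CCAAT and 2 GC box matches, while the Col3a1 window (chr1:45311288-45311587) held 1 TATA match and neither of the others. The Col4a2 window (chr8:11312555-11312854) held 1 CCAAT and 3 GC box matches and also holds the start of Col4a1, which lies 21 bases further on and is read from the opposite strand. The Col11a1 window (chr3:114030290-114030589) held 1 CCAAT and 2 GC box matches. RefSeq windows were matched for 34 of the 43 genes, with 37 windows in all. A CCAAT match was in 12 of these 37 windows, against 37.4% of 32851 windows of all genes, a GC box in 23, against 35.7%, and a TATA box in 4, against 13.6%. These are matches of letters in a window and not sites of binding.

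Collagen genes took 0.228% ± 0.0671 of counts across Kit+K5+, 0.205% ± 0.0623 across Kit+K5-, 0.314% ± 0.129 across Kit-K5+ and 1.75% ± 0.530 across Kit-K5- cells (SD, n = 3 each). The 3 Kit-K5- libraries lay between 1.17% and 2.20%, above every other library. The excess lay in the fibrillar class, at 0.0516% of counts for Kit+K5+, 0.0509% for Kit+K5-, 0.0514% for Kit-K5+ and 1.24% for Kit-K5- cells. It also lay in the other collagens, at 0.0706% for Kit+K5+, 0.0703% for Kit+K5-, 0.0962% for Kit-K5+ and 0.421% for Kit-K5- cells. Type IV genes took 0.106% of counts for Kit+K5+, 0.0838% for Kit+K5-, 0.167% for Kit-K5+ and 0.0965% for Kit-K5- cells, with ranges that overlapped between all 4 groups. Col4a1, a chain of the common basement membrane network, was the most counted collagen in 3 groups, with 25.2% of collagen counts for Kit+K5+, 17.99% for Kit+K5- and 27.5% for Kit-K5+ cells. Col3a1, the chain of type III fibrils, took 29.6% in Kit-K5- cells, followed by the type I chains Col1a2 with 17.6% and Col1a1 with 14.0%.

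**Figure D1:**
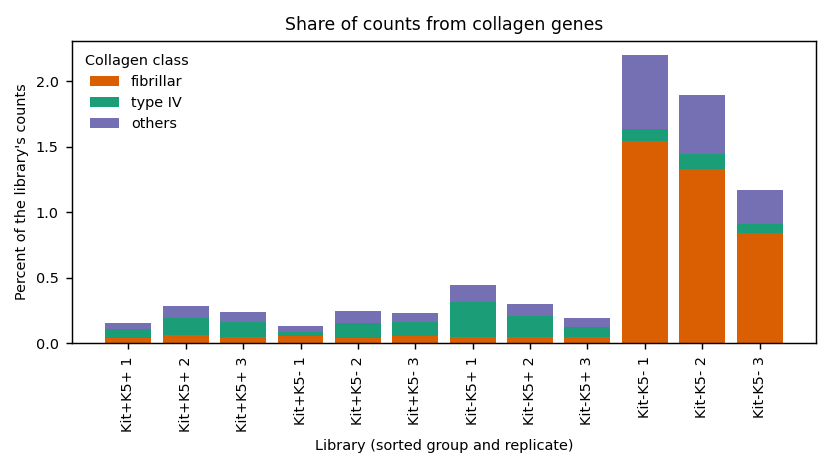
Percent of each library's counts from collagen genes (y axis) in the 12 libraries (x axis, group and replicate), stacked by class. The 3 Kit-K5- bars reach 1.17% to 2.20%, mostly fibrillar, and the other 9 stay at or below 0.447%.

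**Figure D2:**
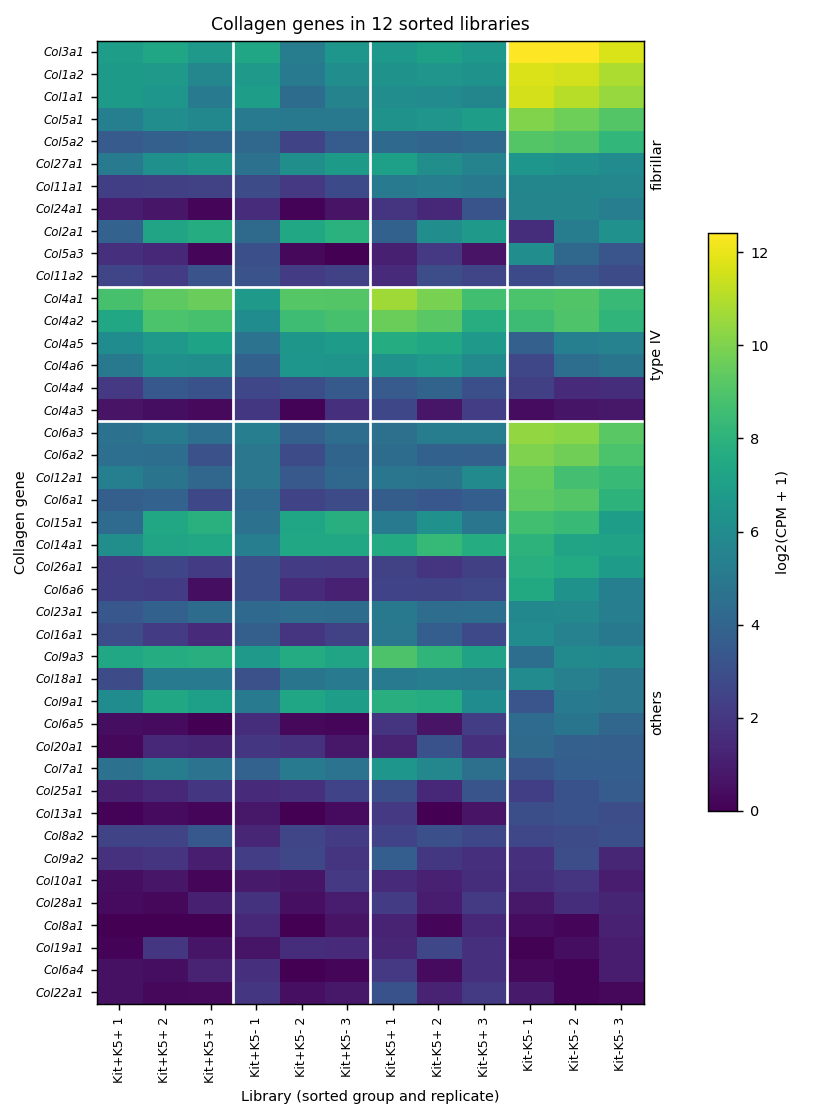
Level of the 43 collagen genes (rows, by class and by mean in Kit-K5- cells) in the 12 libraries (columns), as log2(CPM + 1). Col3a1, Col1a2 and Col1a1 are brightest in the Kit-K5- libraries, while Col4a1 and Col4a2 are bright in all 4 groups.

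A difference anywhere among the 4 groups was called for 24 of the 43 collagens, against 25.7% of all genes. Between Kit-K5+ and Kit-K5- cells, 23 of 43 collagen genes differed by edgeR's quasi-likelihood test with Benjamini-Hochberg adjustment at 0.05, 7 higher and 16 lower in Kit-K5+ cells. Over all genes tested, 16.5% were called, 7.38% higher and 9.1% lower. Between Kit+K5- and Kit-K5- cells, 20 were called, 2 higher and 18 lower in Kit+K5- cells, against 21.3% of all genes, 10.2% higher and 11.1% lower. With the run of library numbers as a block (1 to 4, 5 to 8 and 9 to 12, with 1 library per group in each), 5 and not 2 were higher in Kit+K5- cells, against 14.3% of all genes. These comparisons share the Kit-K5- libraries. Between Kit+K5+ and Kit-K5+ cells, 1 gene was called, lower in Kit+K5+ cells, against 0.658% of all genes, 0.335% higher and 0.323% lower. The block raised this to 3, all lower in Kit+K5+ cells, against 4.63% of all genes in either direction and 2.08% lower. Between Kit+K5+ and Kit+K5- cells none was called by edgeR, where 0% of all genes were called. In that comparison 3 of 43 collagen genes had an unadjusted p under 0.05, as did 1161 of all 17030 genes, a like share. DESeq2 and limma-voom also called 0 collagen genes there, as did the block, which called 0.317% of all genes. The median log2 difference over the collagens was -0.45 for Kit-K5+ over Kit-K5- cells, against 0.04 over all genes. For Kit+K5- over Kit-K5- cells it was -0.94, against 0.05. Scaling to the general epithelial genes in place of TMM moved the median of all genes to -1.39 and -1.90 in these comparisons. No collagen gene was then called higher in either, and 23 and 29 of 43 were called lower. That scaling called 8591 and 11571 of all 17030 genes tested, in either direction. Of the 23 and 20 collagens called with TMM, 16 and 18 were also called with it. The part of the shift of all genes in these counts was not tested. Leaving out replicate 2 of Kit-K5- cells left 4 genes called higher in Kit-K5+ cells. Leaving out the libraries numbered 5 to 8, as an alternative added after seeing the data, left 1 higher and 10 lower in Kit-K5+ cells, and 0 higher in Kit+K5- cells.

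**Figure D3:**
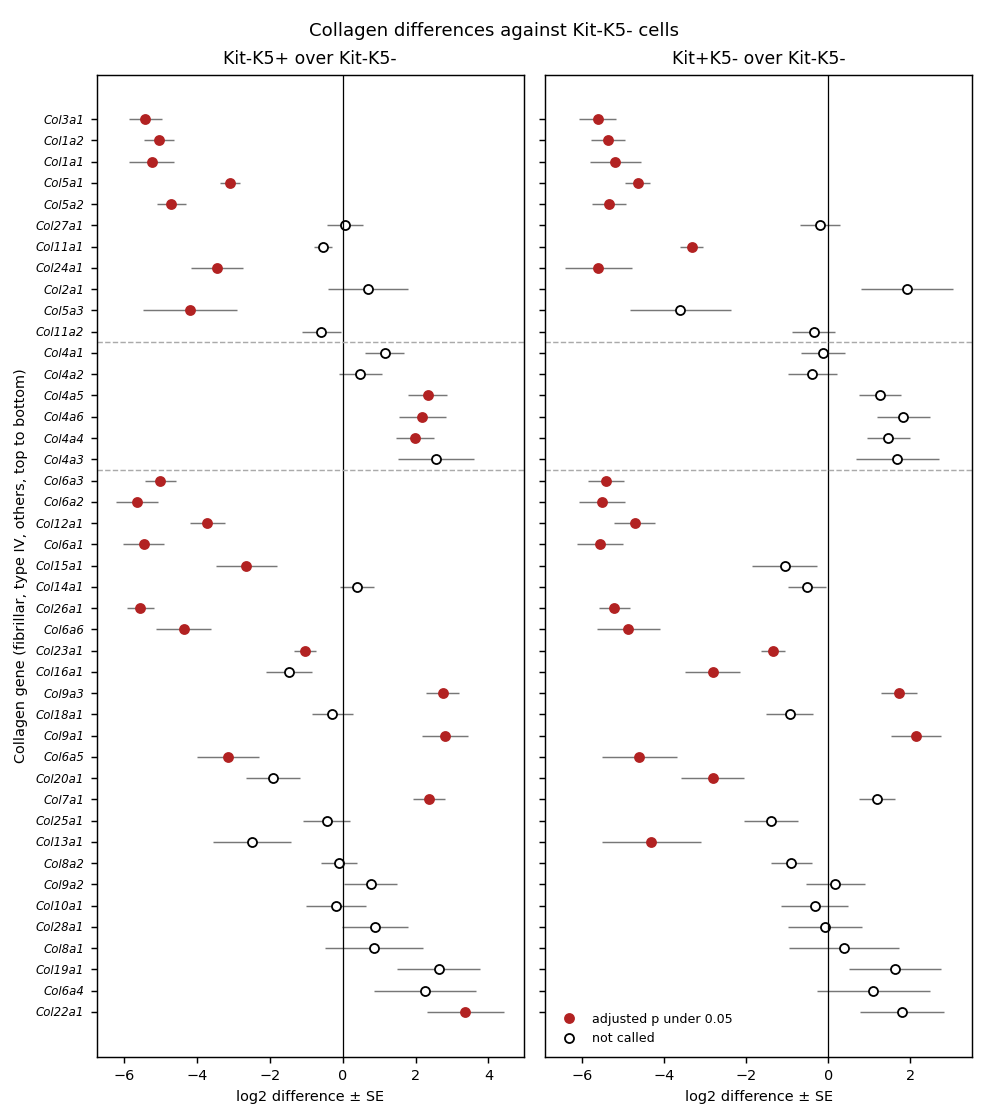
Log2 difference with its standard error (x axis) for the 43 collagen genes (y axis), for Kit-K5+ over Kit-K5- cells (left) and Kit+K5- over Kit-K5- cells (right). Filled points have an adjusted p under 0.05, and Col1a1, Col1a2, Col3a1, Col5a2, Col6a1, Col6a2, Col6a3 and Col26a1 lie far to the left in both panels, while Col9a1 and Col9a3 lie to the right.

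The fibrillar genes did not share 1 pattern. The type I, III and V chains and Col24a1 were high in Kit-K5- cells and low in the other 3 groups. Col11a1 was high in both Kit- groups. Col2a1, Col11a2 and Col27a1 were not called in any comparison in the main fit. The main fit was edgeR with TMM scaling, the filter on low counts, all 12 libraries and no block. Scaling to the general epithelial genes called Col11a2 lower in both Kit-K5+ and Kit+K5- cells, relative to Kit-K5- cells. It called Col27a1 lower in Kit+K5- cells. Of the 11 fibrillar genes, 7 fell and none rose in Kit-K5+ cells relative to Kit-K5- cells. Likewise 7 fell and none rose in Kit+K5- cells. Over all genes, 9.1% were lower in the first comparison and 11.1% in the second. With the run of library numbers as a block, Col2a1 rose in both comparisons, while 7 fibrillar genes fell in Kit-K5+ cells and, for Kit+K5- cells, 8 fell. The block called 11% of all genes higher and 12.8% lower in the first comparison, and 14.3% higher and 14.9% lower in the second. Class medians were -3.46 and -4.65 on the log2 scale.

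Col3a1 had 120.0, 156 and 100.1 CPM across Kit+K5+, 154, 37.8 and 90.6 CPM across Kit+K5-, 97.8, 132 and 96.4 CPM across Kit-K5+ and 5418, 5239.7 and 3338 CPM across Kit-K5- libraries. Every Kit-K5- library lay far above all others, and the other 3 groups overlapped. The log2 difference was -5.42 ± 0.46 (SE) for Kit-K5+ over Kit-K5- cells (adjusted p = 6.97e-06) and -5.63 ± 0.46 for Kit+K5- over Kit-K5- cells (adjusted p = 3.08e-06). Col1a1, the major chain of type I collagen of skin, bone and stroma, had 106, 89.9 and 33.9 CPM across Kit+K5+, 119, 19.6 and 45.0 CPM across Kit+K5-, 66.4, 61.4 and 50.3 CPM across Kit-K5+ and 3136, 2181.6 and 1453 CPM across Kit-K5- libraries. It fell by 5.25 and 5.20 on the log2 scale in Kit-K5+ and Kit+K5- cells relative to Kit-K5- cells. Its partner chain Col1a2 had 107, 99.9 and 52.1 CPM across Kit+K5+, 99.97, 34.7 and 67.0 CPM across Kit+K5-, 82.02, 87.4 and 82.8 CPM across Kit-K5+ and 3443, 3047 and 1902 CPM across Kit-K5- libraries. It fell by 5.06 and 5.38 in the same comparisons. In Kit-K5- cells replicate 3 was the lowest of the 3 for all 3 genes.

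Type V chains, which join type I fibrils and regulate their width, were also highest in all 3 Kit-K5- libraries. Col5a1 had 40.3, 67.5 and 54.7 CPM across Kit+K5+, 33.7, 31.6 and 31.3 CPM across Kit+K5-, 79.3, 87.4 and 118 CPM across Kit-K5+ and 1078, 820.5 and 534 CPM across Kit-K5- libraries. Its difference was smaller in Kit-K5+ cells, at -3.10 ± 0.28, than in Kit+K5- cells, at -4.65 ± 0.30, both relative to Kit-K5- cells, and its Kit-K5+ libraries lay above all Kit+ libraries. The direct comparison of Kit+K5+ with Kit-K5+ cells did not pass the test for Col5a1, with a difference of -0.81 ± 0.26 (adjusted p = 0.138). Col5a2 had 10.8, 13.02 and 15.5 CPM across Kit+K5+, 16.7, 4.74 and 11.2 CPM across Kit+K5-, 18.1, 15.2 and 17.6 CPM across Kit-K5+ and 544, 497 and 297 CPM across Kit-K5- libraries. It fell by 4.71 and 5.36 in Kit-K5+ and Kit+K5- cells. Col5a3 was low and uneven, with 66.1, 16.8 and 8.58 CPM across Kit-K5- libraries and at most 7.08 CPM elsewhere. It fell by 4.20 in Kit-K5+ cells (adjusted p = 0.0408), a call lost without replicate 1, 2 or 3 of Kit-K5+, replicate 1 or 2 of Kit-K5- or replicate 2 of Kit+K5+, with adjusted p between 0.0516 and 0.203, and by limma-voom (adjusted p = 0.0666). In Kit+K5- cells it missed the test at -3.61 ± 1.24 (adjusted p = 0.0521) and passed with the block (adjusted p = 0.00293) and without replicate 1 of Kit+K5-, replicate 3 of Kit+K5+ or replicate 3 of Kit-K5-, at adjusted p of 0.00183, 0.0454 and 0.0471, by limma-voom (adjusted p = 0.0437) and with no filter on low counts.

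Col24a1, a fibrillar chain described in developing bone and eye, had 1.01, 0.675 and 0.129 CPM across Kit+K5+, 2.01, 0.105 and 0.583 CPM across Kit+K5-, 2.75, 1.65 and 8.23 CPM across Kit-K5+ and 48.9, 48.3 and 39.0 CPM across Kit-K5- libraries. It fell by 3.46 in Kit-K5+ cells (adjusted p = 0.00554) and by 5.62 in Kit+K5- cells (adjusted p = 0.000335). Mesenchymal genes also differed in these comparisons. In Kit-K5+ cells 12 of 15 fell and none rose, against 9.1% of all genes lower, with a list median of -4.49. In Kit+K5- cells 13 of 15 fell, against 11.1% of all genes lower, with a median of -4.77. Among them Fap, a surface protease of fibroblasts, fell by 4.80 and 5.20 in Kit-K5+ and Kit+K5- cells, Dcn, a collagen-binding proteoglycan, had differences of -5.002 and -5.64, and Pdgfrb, a receptor of mesenchymal and mural cells, had differences of -5.48 and -5.32. Of 5 pericyte genes, whose summed level averaged 73.9 CPM across Kit+K5+, 87.5 CPM across Kit+K5-, 48.7 CPM across Kit-K5+ and 674 CPM across Kit-K5- cells, 5 and 4 fell. Of 7 neuron genes, 5 fell in both comparisons, and of 8 macrophage and leukocyte genes 5 fell in Kit-K5+ cells and, for Kit+K5- cells, 2 fell, the second count becoming 5 with the block. Of 8 Schwann and glia genes, 3 fell in Kit-K5+ cells and, for Kit+K5- cells, none fell, which became 5 and 3 called with the block. Mast cell genes differed the other way, with 5 of 6 higher in Kit+K5- cells relative to Kit-K5- cells, and with the block all 6 were also called between Kit+K5+ and Kit+K5- cells. The part of such cells in the collagen differences was not tested. For these lists, the shares over all genes were 9.1% lower in Kit-K5+ cells, and 11.1% lower and 10.2% higher in Kit+K5- cells. With the block, 23.8% were called in Kit-K5+ cells, and 14.3% were higher and 14.9% lower in Kit+K5- cells. Between Kit+K5+ and Kit+K5- cells the block called 0.317% of all genes.

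Col11a1 was the one collagen gene called between Kit+K5+ and Kit-K5+ cells in the main fit. It encodes a chain of type XI collagen, a minor fibril component best known from cartilage. It had 3.97, 4.05 and 4.26 CPM across Kit+K5+, 6.13, 3.16 and 5.97 CPM across Kit+K5-, 35.1, 38.6 and 31.8 CPM across Kit-K5+ and 51.5, 50.8 and 51.9 CPM across Kit-K5- libraries. All 6 Kit+ libraries lay below all 6 Kit- libraries, and the 3 Kit-K5+ libraries lay below the 3 Kit-K5- libraries. It fell by 3.10 ± 0.28 (SE) in Kit+K5+ relative to Kit-K5+ cells (adjusted p = 0.000278) and by 3.34 ± 0.28 in Kit+K5- relative to Kit-K5- cells (adjusted p = 3.49e-06). For Kit-K5+ over Kit-K5- cells the difference was -0.55 ± 0.25 (adjusted p = 0.162), and the interaction of the 2 gates was 0.24 ± 0.38 (adjusted p = 0.793). The call within K5+ cells held without any 1 library and was lost without the libraries numbered 5 to 8, where 2 per group remain, at -3.00 with an adjusted p of 0.0687. With the block, Col16a1, a chain of the fibril-associated family, and Col22a1, another of that family, were also called, lower in Kit+K5+ cells, at adjusted p of 0.0180 and 0.0313, and DESeq2 called both of these, Col24a1 and Col6a5 besides Col11a1. Its partner Col11a2 showed no such pattern, with 3.47 to 8.01 CPM across Kit+K5+, 3.69 to 8.03 CPM across Kit+K5-, 1.88 to 6.73 CPM across Kit-K5+ and 5.84 to 8.5 CPM across Kit-K5- libraries.

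Col2a1, the chain of the main cartilage collagen, had 13.9, 149.9 and 203 CPM across Kit+K5+, 18.4, 171 and 241 CPM across Kit+K5-, 13.6, 65.8 and 105 CPM across Kit-K5+ and 2.10, 37.2 and 75.2 CPM across Kit-K5- libraries. Replicate 1 was the lowest in each group, which are the libraries numbered 1 to 4, and so the spread within groups was larger than the difference between them. Its differences of 0.69 ± 1.10 for Kit-K5+ over Kit-K5- cells and 1.92 ± 1.12 for Kit+K5- over Kit-K5- cells were not called in the main fit. With the block they were 1.19 (adjusted p = 0.0134) and 2.18 (adjusted p = 0.000195), and the interaction of the gates was -1.47 (adjusted p = 0.0497). Without the libraries numbered 1 to 4, the second was 1.91 (adjusted p = 0.00433), while scaling to the general epithelial genes turned the first to -0.73. The second was also called with no filter on low counts. Of the chondrocyte genes tested, 4 summed to 5.69 CPM across Kit+K5+, 8.12 CPM across Kit+K5-, 7.76 CPM across Kit-K5+ and 5.08 CPM across Kit-K5- cells. Matn1, a cartilage matrix gene, was too low to test, with a highest count of 3. Col27a1, a fibrillar chain also known from cartilage, had 32.3 to 94.7 CPM across Kit+K5+, 23.4 to 106 CPM across Kit+K5-, 46.5 to 126 CPM across Kit-K5+ and 61.5 to 90.8 CPM across Kit-K5- libraries, with no pairwise call in the main fit.

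**Figure D4:**
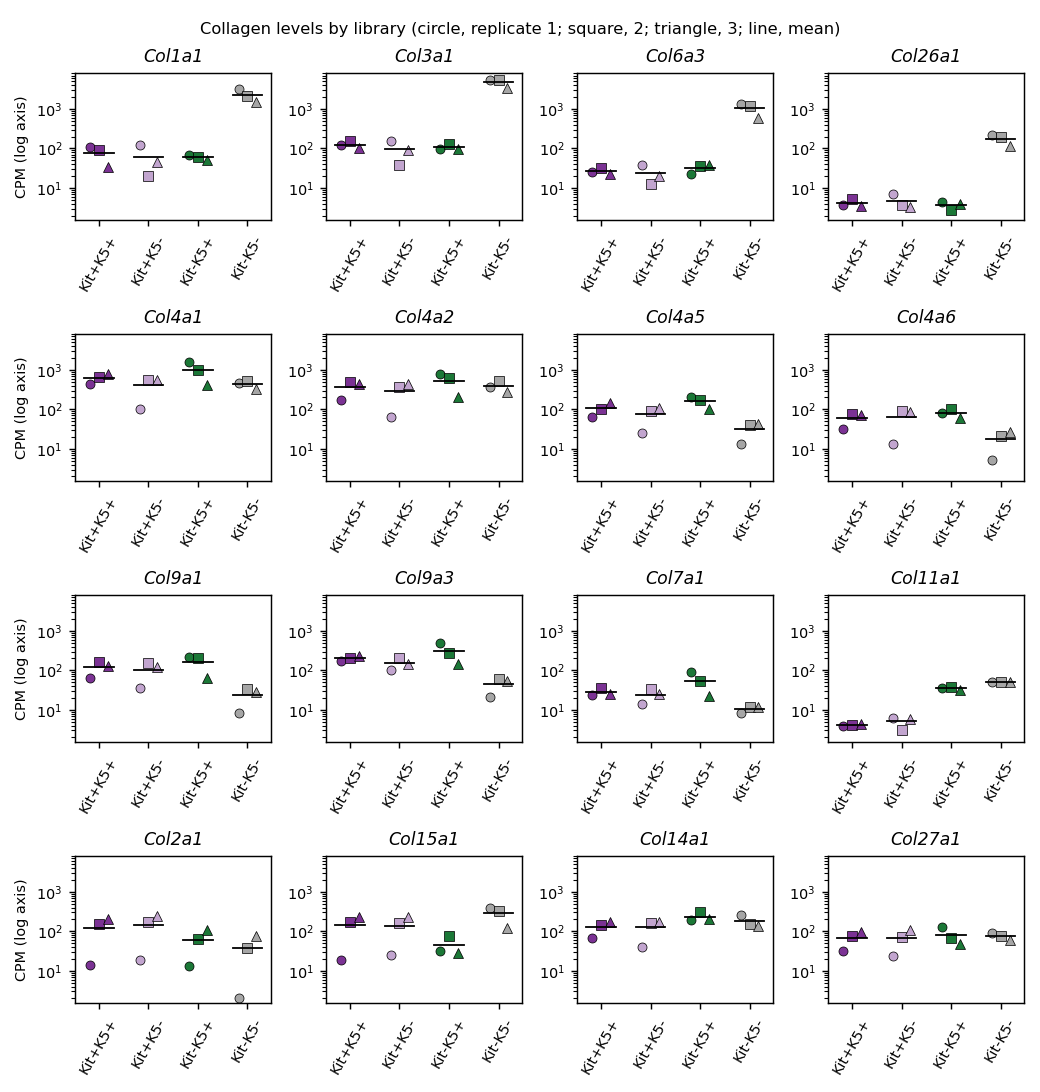
CPM on a log axis (y axis) of 16 collagen genes in each library of the 4 groups (x axis), with circles, squares and triangles for replicates 1, 2 and 3 and a line at the group mean. Col1a1, Col3a1, Col6a3 and Col26a1 stand out in Kit-K5- cells, Col11a1 divides Kit+ from Kit- libraries, and replicate 1 of Col2a1 is low in every group.

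Type IV genes did not share the fibrillar pattern. Of 6 chains, 3 rose and none fell in Kit-K5+ relative to Kit-K5- cells, against 7.38% of all genes higher and 9.1% lower. The class median was 2.08 on the log2 scale. None was called in the main fit in the other pairwise comparisons. The shares of all genes called there were 0% for Kit+K5+ against Kit+K5-, 0.658% for Kit+K5+ against Kit-K5+ and 21.3% for Kit+K5- against Kit-K5- cells. With the block 2 chains, Col4a5 and Col4a6, were called higher in Kit+K5- cells relative to Kit-K5- cells, against 14.3% of all genes, and DESeq2 called Col4a4 and Col4a6 there. The 6 genes lie as 3 head-to-head pairs, whose starts are 21 bases apart for Col4a1 and Col4a2 on chromosome 8, 72 for Col4a3 and Col4a4 on chromosome 1 and 1309 for Col4a5 and Col4a6 on chromosome X.

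Col4a1 had 442, 646 and 764 CPM across Kit+K5+, 101, 567 and 542 CPM across Kit+K5-, 1568, 968 and 405 CPM across Kit-K5+ and 476, 521 and 327 CPM across Kit-K5- libraries. Col4a2, its partner in the network found in every basement membrane, had 171, 481 and 441 CPM across Kit+K5+, 65.1, 375 and 436 CPM across Kit+K5-, 780.4, 607 and 208 CPM across Kit-K5+ and 361, 511 and 274 CPM across Kit-K5- libraries. For both genes the groups overlapped, replicate 1 was the lowest Kit+K5- library and the highest Kit-K5+ library. The differences for Kit-K5+ over Kit-K5- cells were 1.15 ± 0.54 for Col4a1 (adjusted p = 0.165) and 0.48 ± 0.59 for Col4a2 (adjusted p = 0.630), and both changed sign with scaling to the general epithelial genes, to -0.27 and -0.96. Without replicate 1 of Kit+K5-, which enters through the shared spread, Col4a1 passed at 1.14 (adjusted p = 0.0468), and it passed with no filter on low counts. For Kit+K5- over Kit-K5- cells they were -0.13 ± 0.53 and -0.39 ± 0.59, and 0.33 and 0.08 without that library. With scaling to the general epithelial genes, edgeR called both lower there. Col4a1 was then at -1.92 (adjusted p = 0.0146) and Col4a2 at -2.16 (adjusted p = 0.0102).

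Col4a5 and Col4a6, chains of a second network known from some epithelial basement membranes, both rose in Kit-K5+ cells. Col4a5 had 64.8, 105 and 147 CPM across Kit+K5+, 25.5, 93.3 and 111 CPM across Kit+K5-, 202, 175 and 104 CPM across Kit-K5+ and 13.1, 39.2 and 43.5 CPM across Kit-K5- libraries. All Kit-K5+ libraries lay above all Kit-K5- libraries, and replicate 1 of Kit+K5- was the exception among Kit+ libraries, which otherwise did too. Col4a5 rose by 2.33 ± 0.53 (adjusted p = 0.00965) in Kit-K5+ relative to Kit-K5- cells, and was 1.27 ± 0.52 (adjusted p = 0.0995) for Kit+K5- over Kit-K5- cells. The difference in Kit+K5- cells passed with the block (adjusted p = 0.0439), at 1.69 (adjusted p = 0.0145) without replicate 1 of Kit+K5-, and with no filter on low counts (adjusted p = 4.2e-05). Col4a6 had 31.2, 74.8 and 71.6 CPM across Kit+K5+, 13.3, 90.8 and 85.9 CPM across Kit+K5-, 79.1, 104 and 59.7 CPM across Kit-K5+ and 5.25, 21.3 and 27.1 CPM across Kit-K5- libraries. It rose by 2.18 ± 0.65 (adjusted p = 0.0347) in Kit-K5+ cells, a call lost without replicate 1 or 2 of either group, at adjusted p of 0.0680 to 0.116. Its difference for Kit+K5- over Kit-K5- cells was 1.83 ± 0.64 (adjusted p = 0.0570). It passed with the block (adjusted p = 0.00928), by DESeq2 (adjusted p = 0.0153) and with no filter on low counts (adjusted p = 1.64e-08). It also passed without replicate 1 of Kit+K5-, at 2.32 (adjusted p = 0.00566). The fit with no filter hardly moved these differences, at 1.28 for Col4a5 and 1.85 for Col4a6, but gave smaller SEs of 0.27 and 0.29. Its smaller p-values are therefore not separate support.

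Col4a4 had 3.14, 9.64 and 7.62 CPM across Kit+K5+, 5.18, 6.95 and 10.5 CPM across Kit+K5-, 10.6, 14.3 and 7.27 CPM across Kit-K5+ and 4.13, 1.92 and 2.04 CPM across Kit-K5- libraries. Together with Col4a3 and Col4a5 it forms the network best known from the kidney filter. It rose by 1.98 ± 0.52 (adjusted p = 0.0199) in Kit-K5+ relative to Kit-K5- cells, and the call was lost without replicate 2 of Kit-K5+ or replicate 2 or 3 of Kit-K5-, at 1.71, 1.76 and 1.80 with adjusted p of 0.0740, 0.0908 and 0.0743. For Kit+K5- over Kit-K5- cells it was called by DESeq2, with upper-quartile scaling and without replicate 1 of Kit+K5+. Col4a3 was low, with 0.553, 0.386 and 0.258 CPM across Kit+K5+, 3.06, 0.105 and 2.18 CPM across Kit+K5-, 5.38, 0.687 and 3.83 CPM across Kit-K5+ and 0.328, 0.613 and 0.715 CPM across Kit-K5- libraries. Every Kit+K5+ library lay below every Kit-K5+ library, and replicate 2 was far below the others of its group in Kit+K5- and Kit-K5+ cells. Its interaction of -4.67 ± 1.47 (adjusted p = 0.0994) was called by DESeq2, with no filter on low counts and without replicate 2 of Kit+K5-. Scaling to the general epithelial genes ended the calls of all 3 type IV genes in Kit-K5+ cells, leaving 0.55 for Col4a4, 0.92 for Col4a5 and 0.76 for Col4a6, and turned Col4a5 to -0.49 for Kit+K5- over Kit-K5- cells.

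Type IX collagen, which decorates fibrils and is best known from cartilage, was split by chain. Col9a3 had 168, 207 and 226 CPM across Kit+K5+, 102, 199.6 and 148 CPM across Kit+K5-, 498, 277 and 141 CPM across Kit-K5+ and 21.6, 61.2 and 53.7 CPM across Kit-K5- libraries. Every Kit-K5- library lay below every other library. It rose by 2.75 ± 0.45 (adjusted p = 0.00123) in Kit-K5+ and by 1.72 ± 0.44 (adjusted p = 0.0129) in Kit+K5- cells, both relative to Kit-K5- cells. Col9a1 had 63.8, 167 and 128 CPM across Kit+K5+, 35.3, 156 and 121 CPM across Kit+K5-, 223, 205 and 64.1 CPM across Kit-K5+ and 8.53, 33.6 and 28.99 CPM across Kit-K5- libraries. It too was lowest in all Kit-K5- libraries, and rose by 2.80 ± 0.63 (adjusted p = 0.00889) and 2.14 ± 0.62 (adjusted p = 0.0241) in the same comparisons. The calls in Kit+K5- cells were lost for both genes without replicate 1 of Kit-K5- (adjusted p = 0.0516 for Col9a3 and 0.0872 for Col9a1) or replicate 2 of Kit+K5- (0.0611 and 0.105), and for Col9a1 also without replicate 3 of Kit+K5- (0.0548) or of Kit-K5- (0.0516). With scaling to the general epithelial genes, no call remained for either gene: the differences in Kit-K5+ cells were 1.34 for Col9a3 and 1.37 for Col9a1, and in Kit+K5- cells -0.17 for Col9a3 and 0.32 for Col9a1. Col9a2, the remaining chain, stayed between 1.03 and 12.3 CPM in all 12 libraries with no call in the main fit. Scaling to the general epithelial genes called Col9a2 for Kit+K5- over Kit-K5- cells.

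Col7a1, the chain of the anchoring fibrils that tie the basement membrane to the stroma, and named here after its values were seen, had 23.8, 36.5 and 25.6 CPM across Kit+K5+, 14.1, 33.3 and 25.8 CPM across Kit+K5-, 89.5, 53.2 and 22.6 CPM across Kit-K5+ and 8.20, 12.03 and 11.9 CPM across Kit-K5- libraries. Every Kit-K5- library lay below every other library. It rose by 2.37 ± 0.45 (adjusted p = 0.00305) in Kit-K5+ relative to Kit-K5- cells, with 0.96 (adjusted p = 0.144) under scaling to the general epithelial genes. The difference for Kit+K5- over Kit-K5- cells was 1.19 ± 0.43 (adjusted p = 0.0676), which was called by DESeq2, with no filter on low counts, with only the groups compared in the fit, and without replicate 1 of Kit+K5- or replicate 1 or 3 of Kit-K5+. General epithelial genes also differed in these comparisons. In Kit-K5+ cells 10 of 22 rose and none fell, against 7.38% of all genes higher, with a list median of 1.56. In Kit+K5- cells 18 of 22 rose, against 10.2% of all genes higher, with a median of 2.16. Of them Grhl2, an epithelial transcription factor, rose by 2.10 and 1.51 in Kit-K5+ and Kit+K5- cells, and Esrp1, an epithelial splicing regulator, by 1.88 and 2.23. The list median was larger in Kit+K5- cells. Col4a5, Col4a6, Col7a1, Col9a1, Col9a3 and the list gene Grhl2 had larger differences in Kit-K5+ cells. Whether the differences of a gene differ in size between these comparisons was not tested. The part of epithelial cell number in the type IV, VII and IX differences was not tested.

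Type VI genes, whose chains build beaded filaments around cells, were among the collagens most divided between the groups. Of the 6 type VI genes measured, Col6a1, Col6a2, Col6a3, Col6a5 and Col6a6 fell in both Kit-K5+ and Kit+K5- cells relative to Kit-K5- cells, and Col6a4 passed no test. Col6a3 had 24.8, 32.01 and 22.2 CPM across Kit+K5+, 39.0, 12.7 and 20.4 CPM across Kit+K5-, 22.8, 36.5 and 37.1 CPM across Kit-K5+ and 1339.9, 1157 and 600.0 CPM across Kit-K5- libraries. The Kit-K5- libraries stood apart and the others overlapped, with differences of -5.01 ± 0.44 (adjusted p = 8.45e-06) and -5.42 ± 0.45 (adjusted p = 3.08e-06) in Kit-K5+ and Kit+K5- cells. Col6a1 had 5.56 to 13.8 CPM across Kit+K5+, 4.84 to 19.3 CPM across Kit+K5-, 9.20 to 12.2 CPM across Kit-K5+ and 261 to 651 CPM across Kit-K5- libraries, and fell by 5.47 and 5.58. Col6a2 had 7.36 to 21.9 CPM across Kit+K5+, 6.42 to 29.3 CPM across Kit+K5-, 13.01 to 20.0 CPM across Kit-K5+ and 480.2 to 1017 CPM across Kit-K5- libraries, and fell by 5.66 and 5.53. Col6a6 had 182, 80.2 and 40.1 CPM across Kit-K5- libraries and at most 7.08 CPM elsewhere, with differences of -4.37 and -4.88. Col6a5 had differences of -3.16 (adjusted p = 0.0222) and -4.61, and its call in Kit-K5+ cells was lost without replicate 1 or 2 of Kit-K5+ or Kit-K5-, at adjusted p of 0.0540 to 0.0787.

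Of the fibril-associated collagens other than type IX, Col12a1, which bridges fibrils in dense connective tissue, had 40.5, 26.7 and 16.2 CPM across Kit+K5+, 29.1, 9.90 and 16.9 CPM across Kit+K5-, 28.1, 26.1 and 58.2 CPM across Kit-K5+ and 718, 414 and 344 CPM across Kit-K5- libraries. All Kit-K5- libraries were above the rest, and it fell by 3.72 (adjusted p = 0.000185) and 4.72 (adjusted p = 2.69e-05) in Kit-K5+ and Kit+K5- cells. Its close relative Col14a1 did not share this: it had 68.1, 148 and 169 CPM across Kit+K5+, 39.2, 167 and 174 CPM across Kit+K5-, 192, 312 and 205 CPM across Kit-K5+ and 254, 150.1 and 139.7 CPM across Kit-K5- libraries, with no call in the main fit. Scaling to the general epithelial genes called Col14a1 for Kit+K5- over Kit-K5- cells. It was also called for Kit+K5+ over Kit-K5+ cells with no filter on low counts, and for Kit-K5+ over Kit-K5- cells without the libraries numbered 1 to 4. Col16a1 fell in Kit+K5- relative to Kit-K5- cells, with 2.63 to 12.4 CPM across Kit+K5- and 31.04 to 61.5 CPM across Kit-K5- libraries and a difference of -2.83 ± 0.67 (adjusted p = 0.00878). In Kit-K5+ cells its difference of -1.49 ± 0.63 (adjusted p = 0.128) passed with the block (adjusted p = 0.00308) at -2.34 without replicate 1 of Kit-K5+ (adjusted p = 0.0431), by limma-voom, with no filter on low counts and with scaling to the general epithelial genes. Col20a1 fell by 2.82 in Kit+K5- cells (adjusted p = 0.0182), a call lost without replicate 2 or 3 of Kit+K5- or replicate 1 of Kit-K5-, at adjusted p of 0.0571 to 0.0636. In Kit-K5+ cells it was not called in the main fit. It passed there with the block (adjusted p = 0.0372), without replicate 2 of Kit-K5+ (0.0348), by DESeq2 (0.0375) and by limma-voom (0.0193). It also passed in Kit-K5+ cells with no filter on low counts (0.0165) and with scaling to the general epithelial genes (0.00102). Col19a1 passed there with the block as higher (adjusted p = 0.0478). Col22a1, known from tissue junctions, had 7.75, 1.37 and 3.25 CPM across Kit-K5+ and 0.853, 0.0766 and 0.204 CPM across Kit-K5- libraries. It rose by 3.37 ± 1.06 (adjusted p = 0.0443), a call lost without any of 8 libraries, all but replicate 1 or 2 of Kit+K5-, replicate 2 of Kit-K5+ and replicate 1 of Kit-K5-, at adjusted p of 0.0508 to 0.174.

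Col26a1, a small collagen with an EMI domain, had the largest fall of the class outside type VI. It had 3.69, 5.11 and 3.49 CPM across Kit+K5+, 7.08, 3.69 and 3.20 CPM across Kit+K5-, 4.38, 2.75 and 4.02 CPM across Kit-K5+ and 219.8, 189 and 117 CPM across Kit-K5- libraries. It fell by 5.56 ± 0.38 (adjusted p = 2.44e-06) in Kit-K5+ and by 5.22 ± 0.37 (adjusted p = 1.4e-06) in Kit+K5- cells. Of the transmembrane collagens, Col23a1 fell in both comparisons, Col13a1 in 1 and Col25a1 in neither. Col23a1 fell by 1.04 and 1.35 (adjusted p = 0.0291 and 0.00583), with 20.7 to 31.1 CPM across Kit-K5+, 18.2 to 20.96 CPM across Kit+K5- and 38.5 to 56.6 CPM across Kit-K5- libraries, and its call in Kit-K5+ cells was lost without replicate 2 or 3 of Kit-K5+ or replicate 1 or 2 of Kit-K5-, at adjusted p of 0.0893 to 0.103. Col13a1 fell by 4.32 in Kit+K5- cells (adjusted p = 0.0209), a call lost without replicate 2 or 3 of Kit+K5- or replicate 1 or 2 of Kit-K5-, at adjusted p of 0.0516 to 0.0699, and in Kit-K5+ cells it passed with the block (adjusted p = 0.0482), without replicate 1 of Kit-K5+ (0.0338), by limma-voom (0.0199), with no filter on low counts (0.0403) and with scaling to the general epithelial genes (0.00308). Col25a1 had differences of -0.45 ± 0.64 (adjusted p = 0.683) in Kit-K5+ and -1.40 ± 0.66 (adjusted p = 0.149) in Kit+K5- cells, and both were called with scaling to the general epithelial genes.

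The multiplexins, collagens whose ends release endostatin-like fragments, are basement membrane proteins of vessels, muscle and epithelia. Col15a1 had 19.1, 175 and 236 CPM across Kit+K5+, 24.7, 161 and 225 CPM across Kit+K5-, 31.9, 75.7 and 28.7 CPM across Kit-K5+ and 400.5, 332 and 125 CPM across Kit-K5- libraries. Its Kit+ libraries overlapped those of Kit-K5- cells while the Kit-K5+ libraries all lay below them. Its fall of 2.65 ± 0.84 in Kit-K5+ relative to Kit-K5- cells (adjusted p = 0.0453) was lost without any 1 library of Kit-K5+, without replicate 1 or 2 of Kit-K5-, or without replicate 2 of either Kit+ group, at adjusted p of 0.0535 to 0.131, by limma-voom (adjusted p = 0.0686) and with upper-quartile scaling (adjusted p = 0.0501). For Kit+K5- over Kit-K5- cells the difference was -1.06 ± 0.79 (adjusted p = 0.381). Col18a1 had 6.36 to 35.01 CPM across Kit+K5+, 7.40 to 34.4 CPM across Kit+K5-, 34.01 to 38.7 CPM across Kit-K5+ and 29.6 to 62.7 CPM across Kit-K5- libraries and no call in the main fit. Relative to Kit-K5- cells, it was called in both Kit-K5+ and Kit+K5- cells with scaling to the general epithelial genes. With no filter on low counts it was called in Kit+K5- cells. Endothelial genes summed to 13.5 CPM across Kit+K5+, 14.6 CPM across Kit+K5-, 17.7 CPM across Kit-K5+ and 52.3 CPM across Kit-K5- cells. They gave no call in Kit-K5+ cells, against 16.5% of all genes. In Kit+K5- cells 2 of 6 were lower, against 11.1% of all genes. Their part in the multiplexin values was not tested. The least counted members were Col8a1, Col6a4, Col19a1, Col28a1, Col10a1, Col4a3, Col13a1 and Col22a1. Col8a1 had 0 counts in all 3 Kit+K5+ libraries, which allows up to 0.277, 0.289 and 0.388 CPM by a floor of 3 counts per library, for counting error only.

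Chains of 1 molecule were compared per kilobase of coding transcript. The ratio of Col1a1 to Col1a2 was 0.763 ± 0.158 across Kit+K5+, 0.729 ± 0.301 across Kit+K5-, 0.637 ± 0.0912 across Kit-K5+ and 0.719 ± 0.0917 across Kit-K5- libraries (SD, n = 3 each), while both chains differed between the groups by over 5 on the log2 scale. The length chosen decides whether this ratio is above or below 1, since per kilobase of merged exons, which include introns kept in some transcripts, the means were 1.60 for Kit+K5+, 1.53 for Kit+K5-, 1.34 for Kit-K5+ and 1.51 for Kit-K5- cells. The ratio of Col4a1 to Col4a2 was 1.84 ± 0.616 for Kit+K5+, 1.398 ± 0.162 for Kit+K5-, 1.80 ± 0.217 for Kit-K5+ and 1.15 ± 0.146 for Kit-K5- libraries, with each Kit-K5- library below each Kit-K5+ library. That of Col4a5 to Col4a6 lay between 1.05 and 2.60 in all libraries. The ratio of Col9a2 to Col9a3 was 0.0111 for Kit+K5+, 0.0281 for Kit+K5-, 0.0180 for Kit-K5+ and 0.0824 for Kit-K5- cells. The ratio of Col5a1 to Col5a2 was 3.27 for Kit+K5+, 3.02 for Kit+K5-, 4.41 for Kit-K5+ and 1.43 for Kit-K5- cells. That of Col11a1 to Col11a2 was 0.585 for Kit+K5+, 0.712 for Kit+K5-, 7.24 for Kit-K5+ and 5.46 for Kit-K5- cells. No ratio was tested.

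**Figure D5:**
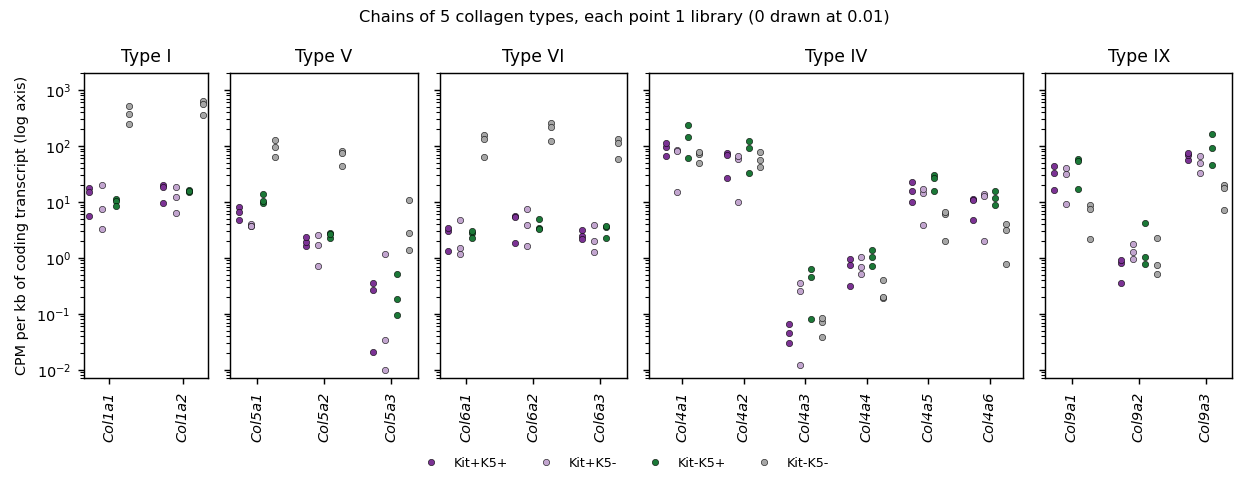
CPM per kilobase of coding transcript on a log axis (y axis) for the chains of types I, V, VI, IV and IX (x axis), with 1 point per library, coloured by group. Chains of types I and VI lie together and high in Kit-K5- cells, and Col9a2 lies far below Col9a1 and Col9a3 in all 4 groups.

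Whether the K5 difference depends on Kit was asked with the interaction, the K5 difference in Kit+ cells minus that in Kit- cells. It was called for 12 collagen genes, 11 positive and 1 negative, against 4.02% of all genes, 2.81% positive and 1.21% negative. With the run of library numbers as a block, 11 were positive and 6 negative, against 8.33% of all genes, 4.84% positive and 3.49% negative. The positive ones were Col1a1, Col1a2, Col3a1, Col5a1, Col5a2, Col6a1, Col6a2, Col6a3, Col6a6, Col12a1 and Col26a1, which fell in Kit-K5+ relative to Kit-K5- cells and had K5 differences in Kit+ cells between -0.33 and 0.75. For Col3a1 the K5 difference was 0.41 in Kit+ cells and -5.42 in Kit- cells, and the interaction was 5.84 ± 0.57 (adjusted p = 6.06e-05). Col9a3 was the negative one, at -2.33 ± 0.61 (adjusted p = 0.0480), with K5 differences of 0.42 in Kit+ and 2.75 in Kit- cells. The call of Col9a3 was lost when any of 10 libraries was left out, the exceptions being replicate 1 of Kit+K5- and replicate 3 of Kit-K5+, with adjusted p of 0.0642 to 0.116, under scaling to the general epithelial genes (adjusted p = 0.443), by limma-voom (0.0520) and with a filter of 1 CPM in a group mean (0.0501). That of Col6a6, 4.04 ± 1.03 (adjusted p = 0.0426), was lost in 9 such fits, all but those without replicate 1 of Kit+K5- or replicate 3 of Kit+K5+ or of Kit-K5-, with adjusted p of 0.0684 to 0.117, by limma-voom (0.233) and with upper-quartile scaling (0.0573).

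Of 21 enzymes and chaperones that modify and fold collagen chains in the cell, 7 fell and none rose in Kit-K5+ relative to Kit-K5- cells, against 9.1% of all genes lower, with a list median of -1.06. In Kit+K5- cells 10 fell and none rose, against 11.1% of all genes lower, with a list median of -1.16. With the block 13 were called in Kit-K5+ cells, against 23.8% of all genes in either direction. Fkbp10, a prolyl isomerase that acts on procollagen, averaged 16.6 CPM across Kit+K5+, 13.9 CPM across Kit+K5-, 14.6 CPM across Kit-K5+ and 100.05 CPM across Kit-K5- cells and fell by 2.77 and 2.85. Leprel2, a prolyl 3-hydroxylase family member, fell by 2.14 and 2.49, and Leprel4, a partner in that family, by 1.91 and 1.63. These genes were above 5 CPM in all 4 groups.

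Of 13 genes that process procollagen outside the cell and cross-link fibrils, 8 fell and 1 rose in Kit-K5+ cells, with a median of -2.11. In Kit+K5- cells 10 fell, with a median of -3.42. Over all genes, 9.1% were lower and 7.38% higher in the first comparison, and 11.1% were lower in the second. Lox, the enzyme that starts cross-links, averaged 5.49 CPM across Kit+K5+, 3.65 CPM across Kit+K5-, 4.11 CPM across Kit-K5+ and 112 CPM across Kit-K5- cells and fell by 4.75 and 4.93. Pcolce, an enhancer of procollagen C-proteinase, fell by 5.01 and 4.46, and Adamts2, an N-proteinase, by 3.79 and 4.22. The 1 gene that rose, Fmod, a small proteoglycan on fibrils, was named after its values were seen and rose by 3.47 (adjusted p = 0.00177) in Kit-K5+ cells.

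Among 10 collagen receptors, 2 rose and 3 fell in Kit-K5+ cells, with a median of -1.38. In Kit+K5- cells 1 rose and 4 fell, with a median of -1.09. The shares over all genes were 7.38% higher and 9.1% lower in Kit-K5+ cells, and 10.2% higher and 11.1% lower in Kit+K5- cells. Ddr2, a receptor kinase for fibrillar collagens, averaged 13.5 CPM across Kit+K5+, 14.0 CPM across Kit+K5-, 15.96 CPM across Kit-K5+ and 358 CPM across Kit-K5- cells, with differences of -4.49 and -4.68. Itga1, a collagen-binding integrin chain, fell by 3.64 and 5.14. Gpr56, an adhesion receptor reported to bind type III collagen, rose by 2.13 and 2.31, with 0.72 and 0.29 and no call under scaling to the general epithelial genes.

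Of 11 transcription factors known to act on collagen genes, 3 rose and 4 fell in Kit-K5+ cells, with a median of -0.25. In Kit+K5- cells 1 rose and 4 fell, with a median of -0.17. The shares over all genes were 7.38% higher and 9.1% lower in Kit-K5+ cells, and 10.2% higher and 11.1% lower in Kit+K5- cells. Prrx1, a homeobox gene of mesenchyme and a member of the mesenchymal list too, fell by 4.46 and 5.10, and Osr2, which acts in connective tissue, by 4.81 and 6.09. Sox9, which drives Col2a1, Col9a1 and Col11a2 in cartilage and marks salivary progenitors, averaged 202 CPM across Kit+K5+, 192 CPM across Kit+K5-, 218 CPM across Kit-K5+ and 75.2 CPM across Kit-K5- cells and rose by 1.53 (adjusted p = 0.00193) in Kit-K5+ and by 1.36 (adjusted p = 0.00301) in Kit+K5- cells, differences that became 0.11 and -0.56 under scaling to the general epithelial genes.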

How the data were processed

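RNA of 12 sorted libraries was measured by single-end sequencing of 50 nt reads. Per the labels' protocols and the submitters' processing notes, the authors mapped reads to GRCm38 (GRCm38.p3) with STAR 2.4.2a and counted them per gene with featureCounts 1.4.6-p3, and the deposited values are raw counts. The labels state neither the strand setting nor the annotation release. The series matrix and the single tables held the same counts in every cell.

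Counts were tested with edgeR 4.0.16 (R 4.3.3) by the quasi-likelihood test, after filterByExpr by group and TMM scaling, with all 12 libraries, 1 coefficient per group and 8 residual degrees of freedom. p-values were adjusted by the Benjamini-Hochberg method over 17030 genes, and the SE is the log2 difference divided by the square root of F. The common biological coefficient of variation was 0.437. CPM are edgeR's library-scaled counts over tested genes after TMM scaling. The script was tested on simulated data. DESeq2 1.42.0, limma 3.58.1 (voom), other scalings and filters, single libraries left out, and a block were alternatives. Gene positions and lengths came from GENCODE M21, matched for 39469 of 43280 symbols and for all 43 members. Of the members, 13 shared exon bases with another gene, none over 10%. Levels between genes were planned per kilobase of merged exons, and the coding transcript was added after seeing the data.

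Titles carry library numbers, and runs of 4 numbers hold 1 library per group. Deviations from the group means correlated within runs at 0.108 to 0.408 for the pairs compared directly, above the limit of 0.1. By that limit the run pairs those libraries. For the interaction, which also uses the remaining pair of groups, the lowest was 0.0928. The labels state no design formula, and the main fit left the run out, so its tests do not use this pairing. With the block, 28 collagens and not 23 were called for Kit-K5+ over Kit-K5- cells, against 23.8% of all genes. For Kit+K5- over Kit-K5- cells 24 and not 20 were called, against 4977 of 17030 genes. In the interaction 17 and not 12 were called, against 8.33% of all genes. Per-library values were given for called genes with a group mean of 10 CPM, up to 8 per class by level, for every type IV chain and for every gene called in the Kit comparison in K5+ cells or the interaction. Other genes named were chosen after their values were seen. From other lists, up to 3 called genes with the smallest adjusted p were named. Members and lists were chosen with earlier results of these data known.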

Additional observations from a re-analysis of the deposited data

Results flagged for a closer look

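The difference between K5+ and K5- cells was not the same in Kit+ and Kit- cells for 12 collagen genes, by the interaction term in edgeR's quasi-likelihood test with Benjamini-Hochberg adjustment. Over all genes 4.02% were called, 2.81% positive and 1.21% negative. On the log2 scale, with the K5 difference in Kit+ cells minus that in Kit- cells, the interaction was 5.57 for Col1a1, 5.42 for Col1a2, 5.84 for Col3a1, 3.85 for Col5a1 and 4.98 for Col5a2 among fibrillar chains. It was 5.54 for Col6a1, 5.66 for Col6a2, 5.14 for Col6a3 and 4.04 for Col6a6 among type VI chains, 4.30 for Col12a1 and 5.37 for Col26a1. It was -2.33 for Col9a3, the 1 negative case. The same test called 9 of 15 mesenchymal genes, all positive, and 7 of 22 general epithelial genes, all negative. The cause was not tested.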

How the results depend on the processing

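Counts are of genes called at an adjusted p of 0.05 unless said otherwise. The run of library numbers as a block called 54 genes between Kit+K5+ and Kit+K5- cells (0 without it). It called 788 between Kit+K5+ and Kit-K5+ cells (112 without it) with 3 collagens lower. For Kit in K5- cells it called 4977 genes with 5 collagens higher, and in the interaction 1418 genes with 6 negative collagens. Apart from these and the calls named with the block in the results, the block changed no other call of a collagen gene in the pairwise comparisons. In the interaction it called Col4a6, Col22a1, Col2a1, Col7a1 and Col9a1 too.

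Scaling to the general epithelial genes, which moved the median of all genes by over 1 on the log2 scale, called 62 genes for K5 in Kit+ cells, 8591 for K5 in Kit- cells, 337 for Kit in K5+ cells, 11571 for Kit in K5- cells, 3763 for the interaction and 11656 for any difference. It left 0 collagens higher for K5 in Kit- cells, 4 lower for Kit in K5+ cells, 0 higher and 29 lower for Kit in K5- cells, and 17 positive and 0 negative in the interaction. Under it Col2a1 turned to -0.73 between Kit-K5+ and Kit-K5- cells and 0.68 in the interaction, Col4a1 to -0.27 and Col4a2 to -0.96 in the first of these comparisons, and Col4a5 to -0.49 and Col9a3 to -0.17 for Kit in K5- cells. DESeq2 called 119 genes for K5 in Kit+ cells and 1039 with 5 collagens lower for Kit in K5+ cells. It called 4552 genes with 5 collagens higher for Kit in K5- cells, and 1411 genes with 6 negative collagens in the interaction. limma-voom called 58 genes for Kit in K5+ cells and 0 negative collagens in the interaction. With no filter on low counts, 318 genes were called for K5 in Kit+ cells, 1212 for Kit in K5+ cells with 2 collagens higher and 7 lower, 6 collagens higher for Kit in K5- cells, and 1960 genes with 7 negative collagens in the interaction. For Col2a1, Col4a5 and Col4a6 in Kit in K5- cells, the fit with no filter gave nearly the same differences as the main fit with smaller SEs. A filter of 1 CPM in a group mean left 0 negative collagens in the interaction. A fit of only the groups compared called 72 genes for Kit in K5+ cells. The share of counts from collagens in Kit+K5+ cells was 0.300% outside mitochondrial transcripts.

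Alternatives added after seeing the data left out 1 run. Without the libraries numbered 1 to 4, 3 genes were called for K5 in Kit+ cells, 1691 for K5 in Kit- cells, 8 for Kit in K5+ cells, 452 in the interaction and 2629 for any difference, with 7 collagens higher for Kit in K5- cells. Col4a1 and Col4a2 then turned to 0.42 and 0.0754 for Kit in K5- cells. Without those numbered 5 to 8, the counts were 548 for K5 in Kit- cells with 1 collagen higher and 10 lower, 1 for Kit in K5+ cells with 0 collagens lower, 851 for Kit in K5- cells with 0 collagens higher, 87 in the interaction with 7 positive and 0 negative collagens, and 1011 for any difference with 15 collagens. Without those numbered 9 to 12, they were 1710 for K5 in Kit- cells with 4 collagens higher, 9 for Kit in K5+ cells, 2226 for Kit in K5- cells with 1 collagen higher, 343 in the interaction with 0 negative collagens, and 2402 for any difference.

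Leaving out 1 library at a time gave 0 to 4 genes for K5 in Kit+ cells, 1362 to 3157 genes for K5 in Kit- cells with 4 to 8 collagens higher and 12 to 16 lower, 4 to 240 for Kit in K5+ cells with 1 collagen lower throughout, 2123 to 3754 for Kit in K5- cells with 0 to 5 collagens higher and 16 to 19 lower, 370 to 729 in the interaction with 10 to 13 positive and 0 to 5 negative collagens, and 2655 to 4689 for any difference with 21 to 26 collagens. Col4a1 for Kit in K5- cells turned to 0.33 without replicate 1 of Kit+K5- and to 0.00261 without replicate 2 of Kit-K5-, over a range of -0.47 to 0.33, and Col4a2 to 0.0850 without the first of these, over a range of -0.77 to 0.0850. Of the 23 collagens called for K5 in Kit- cells, 16 kept their call in each of these 12 fits, and likewise 16 of 20 for Kit in K5- cells and 10 of 12 in the interaction. The causes of these changes were not tested. With 3 libraries a group, calls of the least counted genes turned on the setting: Col4a3 was called in the interaction by DESeq2, with no filter and without replicate 2 of Kit+K5-, and Col8a1 for Kit in K5+ cells with no filter. Col6a4, with summed counts of 13 to 39 per group, was called in no fit run, which does not show that its groups are equal.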
